A study of Mus musculus with 5 samples.

Results

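The genes of MHC class II antigen presentation were described on 5 arrays of RNA labelled as murine lung, by every probe set that the platform annotation gives exactly 1 gene symbol and whose symbol is H2-Aa, H2-Ab1, H2-Eb1, Cd74, H2-DMa, H2-Ob or Ctss. Each probe set combines several short oligonucleotides that read a transcript. The rule found 8 probe sets of 12422, which stand for all 7 genes, of 8251 genes named in this way, since H2-DMa has 2. It used the annotation and no measured value. The animals were A-J mice, by the labels' spelling. Of the arrays, 2 came from mice given saline into the trachea (titles with the numbers 6 and 48) and 3 from mice given the cytokine IL-13 by the same route (titles with the numbers 6, 18 and 48). The titles give these numbers no unit, and an array is called here by treatment and title number, such as saline 6. The labels name no genotype beyond the strain, and no age, sex or number of animals per array. Every combination of treatment and title number was a single array, so the replicates of a treatment also differed in title number. Nothing states that they were separate animals, and the p-values cover only array-to-array spread, which may be technical.

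MHC class II molecules carry peptides of proteins taken up by a cell to its surface, where CD4+ T cells read them. An alpha and a beta chain form the molecule, the invariant chain Cd74 fills its groove until endosomal proteases such as cathepsin S (Ctss) cut it, and the DM molecule then exchanges the remaining fragment for peptide. The DO molecule restrains DM. In the lung, class II genes are known for high transcript levels in dendritic cells, B cells and many macrophages and for a lower level in alveolar type II cells, and the coactivator Ciita drives most of them through upstream elements called the X and Y boxes. The alpha and beta chain genes differ in sequence between mouse strains.

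Upstream sequence is shown for the members with such boxes within 120 bases of the annotated start, because a shared element is what these genes are known for. The RefSeq promoter table (GRCm38.p6, strain C57BL/6J, not A-J) matched 5 of the 7 genes with 6 windows, and 250 bases before each start were searched on both strands. Capitals mark matches to the Y box core ATTGG, to the extended Y box CTGATTGG that contains it, to a loose X1 box (CNNAG, NNAC and NNATG joined in this order) or to CTAGCAAC, a part of that box chosen after the windows had been read. The sequences run 5′ to 3′ along each gene's own strand and end at the base before the start. They lie at chr17:34287824-34287943 (minus strand, H2-Aa), chr17:34305747-34305866 (plus strand, H2-Eb1) and chr17:34238785-34238904 (plus strand, H2-Ob).
H2-Aa: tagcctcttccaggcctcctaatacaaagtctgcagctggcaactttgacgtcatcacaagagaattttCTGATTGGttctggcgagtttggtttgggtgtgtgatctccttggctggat
H2-Eb1: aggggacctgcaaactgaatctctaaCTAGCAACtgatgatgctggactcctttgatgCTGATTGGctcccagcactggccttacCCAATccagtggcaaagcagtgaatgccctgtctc
H2-Ob: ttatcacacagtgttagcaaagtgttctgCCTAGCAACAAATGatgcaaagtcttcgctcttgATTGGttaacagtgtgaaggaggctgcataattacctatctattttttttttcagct

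The Y box core on the gene's own strand began 48 bases before the start in H2-Aa, 59 in H2-Eb1 and 57 in H2-Ob, and H2-Eb1 held a further one on the other strand at 35. It was in 4 of the 6 member windows (the remaining match lay 198 bases before an annotated H2-DMa start) and in 33.8% of all 32851 promoter windows. The extended Y box was in the windows of H2-Aa and H2-Eb1 and in 3.83% of all windows. The loose X1 box was in H2-Ob and in 0.673% of all windows, and a stricter form (CCNAG, NNAC and NGATG joined) was in no member window and in 0.0487% of all. CTAGCAAC was in H2-Eb1 and H2-Ob and in 1.13% of all windows. The window of Ctss held none of these. A match describes letters and is not a binding site.

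**Figure D1:**
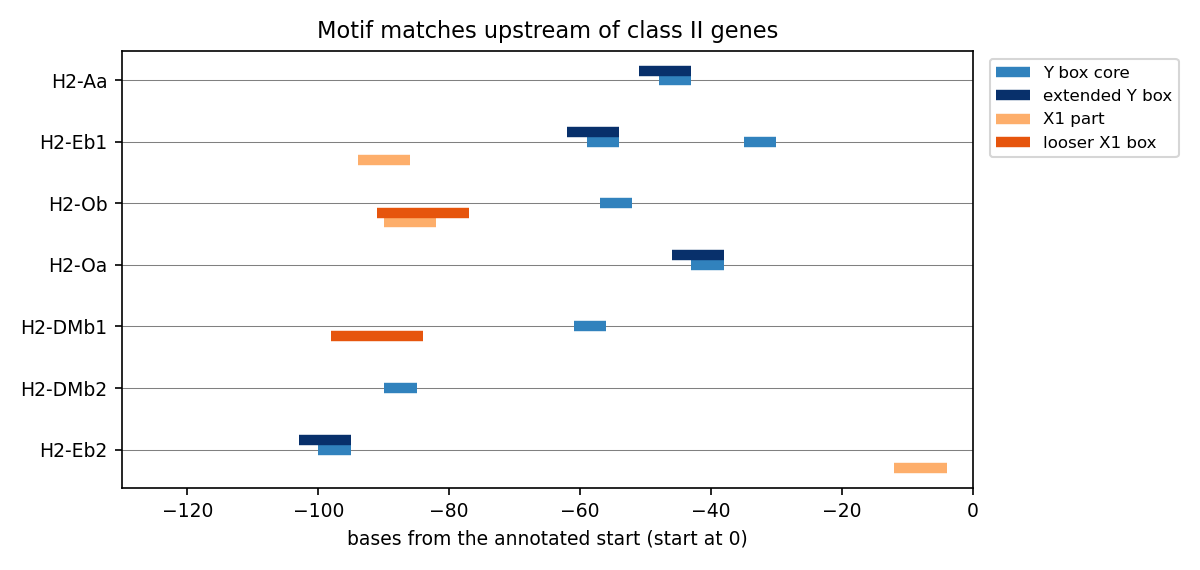
Matches to the searched motifs by distance in bases from the annotated start (start at 0), for 3 members and for H2-Oa, H2-DMb1, H2-DMb2 and H2-Eb2. The stricter X1 box is not drawn. In H2-DMb1 it matched at the place of the loose one, 98 to 85 bases before the start. The Y box core of H2-Aa, H2-Eb1 and H2-Ob began 48, 59 and 57 bases before the start, and the X1 part of H2-Eb1 and H2-Ob 94 and 90 bases before it.

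The values are intensities that the authors deposited, on a linear scale and already scaled to a common mean. Values below 55.3 (the pooled 20th percentile, called the floor here) were set to it before log2 was taken, and probe sets above 210.2 on at least 2 arrays were tested, 7811 in all. Of the member probe sets 7 were tested, and that of H2-Ob was not, since it exceeded 210.2 on saline 6 alone. The array saline 6 stood apart from the others. It alone was bright for salivary gland transcripts such as Smr3a (22984, at most 28.6 elsewhere), and the B cell marker Cd79a read 2126 on it against 127 to 783 on the others. Of markers of the labelled tissue, the club cell gene Scgb1a1 read 22024 to 31024 on all arrays, while the alveolar type II gene Sftpc read 17178 on IL-13 18, 2615 on saline 6 and 194 to 300 on the other 3. The members' differences are therefore also given without saline 6.

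Transcripts of the class II genes were brightest on saline 6, apart from the dim H2-DMa probe set, which was brightest on saline 48. Saline 6 was the highest of the 5 arrays for 6 of the 7 tested member probe sets, where it was the highest for 21.4% of all tested probe sets, and it was also the highest for the untested H2-Ob. All 7 tested probe sets had a lower mean after IL-13 (44.7% of all tested did), with a median log2 difference of -0.63 where that of all tested probe sets was 0.04. No member passed the limma test, and without saline 6 the members' median difference was -0.00125.

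**Figure D2:**
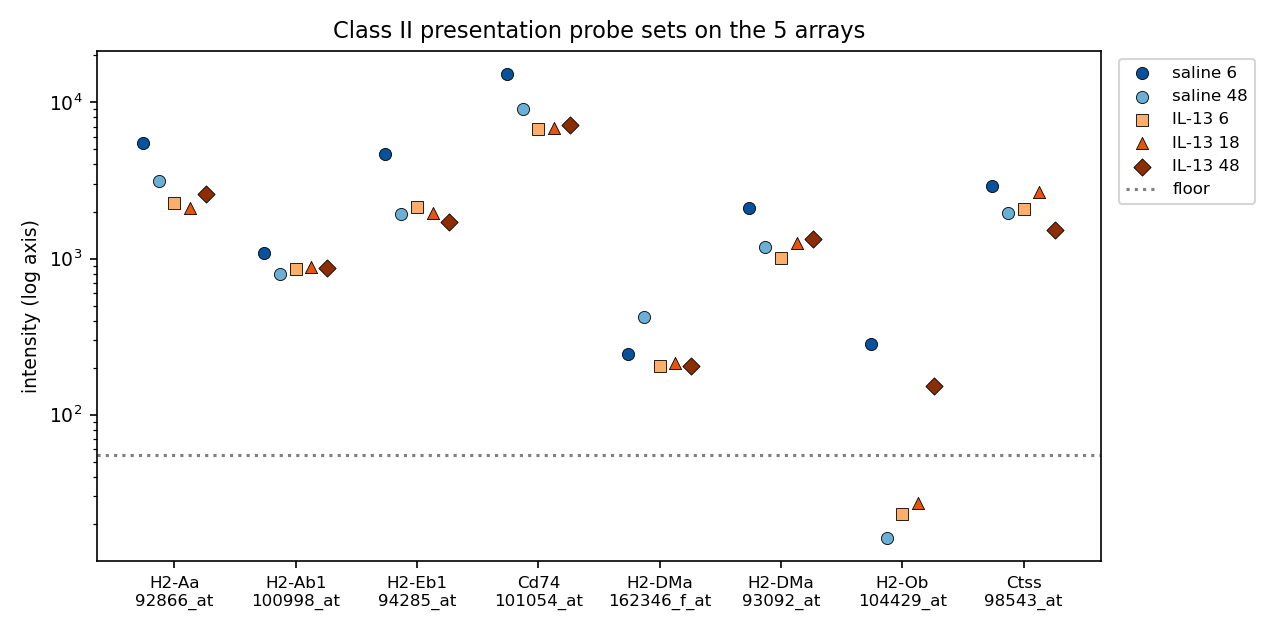
Deposited intensity (log axis) of the 8 member probe sets on each of the 5 arrays, with the floor of 55.3 as a dotted line. Saline 6 is the highest point in 7 of the 8 columns, and for H2-Ob 3 arrays lie below the floor.

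H2-Aa, the alpha chain of the A molecule (probe set 92866_at), read 5476 on saline 6 and 3129 on saline 48, whereas IL-13 6 gave 2254, IL-13 18 gave 2120 and IL-13 48 gave 2587. All 3 IL-13 arrays lay below both saline arrays, and saline 6 was 1.75 times the next highest array. On the log2 scale the level was 12.02 ± 0.57 (SD, n = 2) with saline and 11.18 ± 0.15 (SD, n = 3) with IL-13. The difference was -0.84 (SE 0.27, 95% interval -1.49 to -0.20), which was not significant over all probe sets tested (limma adjusted p 0.469). Against saline 48 alone the mean of the IL-13 arrays differed by -0.44, and against saline 6 alone by -1.24.

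H2-Ab1, the beta chain of the same molecule (100998_at), varied least. Saline 6 gave 1085 and saline 48 gave 794, while the values with IL-13 were 856 (6), 883 (18) and 872 (48). The IL-13 arrays lay between the saline arrays, and the highest of them was 1.03 times the lowest. The difference was -0.09 (SE 0.19, 95% interval -0.56 to 0.37, limma adjusted p 0.908), and it was 0.13 against saline 48 alone. Against saline 48, H2-Aa was lower and H2-Ab1 higher on all 3 IL-13 arrays. A difference between the chains was not tested, and whether the probes of either match the A-J allele was not checked.

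H2-Eb1, the beta chain of the E molecule (94285_at), showed the largest gap between the saline arrays among the tested members. It read 4650 on saline 6 and 1928 on saline 48, a 2.41-fold gap, and 2150, 1967 and 1705 on IL-13 6, IL-13 18 and IL-13 48. Saline 48 lay within the range of the IL-13 arrays. The difference was -0.63 (SE 0.37, 95% interval -1.52 to 0.25, limma adjusted p 0.662), and without saline 6 it was 0.0027. Saline 6 was at least 2-fold above saline 48 for H2-Eb1 alone among the 7 tested members and for 2.34% of all tested probe sets.

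Cd74, the invariant chain (101054_at), had the array order of H2-Aa in its top 3 places. It read 15193 on saline 6 and 9009 on saline 48, against 6784, 6871 and 7153 on IL-13 6, IL-13 18 and IL-13 48. The IL-13 arrays lay below both saline arrays and within 1.05-fold of each other. The log2 level was 13.51 ± 0.53 (SD, n = 2) with saline and 12.76 ± 0.04 (SD, n = 3) with IL-13. The difference was -0.75 (SE 0.25, 95% interval -1.35 to -0.16, limma adjusted p 0.480), and against saline 48 alone it was -0.38.

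Ctss, the protease that trims Cd74 (98543_at), had another order of arrays. Saline 6 (2900) was followed by IL-13 18 (2686), IL-13 6 (2077), saline 48 (1960) and IL-13 48 (1521). The IL-13 arrays spanned 1.77-fold and enclosed saline 48. The difference was -0.22 (SE 0.30, 95% interval -0.94 to 0.49, limma adjusted p 0.852), and it was 0.0579 without saline 6. The IL-13 spread of Ctss on the log2 scale (SD 0.41, n = 3) was the widest of the tested members, where Cd74, H2-Aa, H2-Ab1 and H2-Eb1 had SDs from 0.02 to 0.17.

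H2-DMa, the alpha chain of the peptide exchanger DM, had 2 probe sets that disagreed. The brighter 93092_at read 2098 on saline 6, 1193 on saline 48 and 1009, 1265 and 1326 on IL-13 6, IL-13 18 and IL-13 48. Saline 48 again lay among the IL-13 arrays, and the difference was -0.41 (SE 0.28, 95% interval -1.08 to 0.27, limma adjusted p 0.713), or -0.00125 without saline 6. The dim 162346_f_at, whose ending marks probes that may match related transcripts, read 244 on saline 6 and 425 on saline 48, against 205, 214 and 205 with IL-13. Here saline 48 was the highest array and the IL-13 arrays lay below both saline arrays, at a difference of -0.63 (SE 0.26, 95% interval -1.25 to -0.02, limma adjusted p 0.529). Its values sit near the test's lower limit of 210.2, and 3 arrays exceeded it.

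H2-Ob, the beta chain of DO, which in mice is mainly a B cell gene (104429_at), was dim and uneven. It read 282 on saline 6 and 153 on IL-13 48, and 16.2, 23.1 and 27.1 on saline 48, IL-13 6 and IL-13 18, all 3 below the floor. It was at least 5.09-fold higher on saline 6 than on saline 48 or IL-13 6, and at least 2.76-fold higher on IL-13 48 than on saline 48. Each treatment thus held an array with signal and an array without. The B cell markers Ms4a1 (104173_at, 2352 and 306 with saline 6 and 48, and 818, 330 and 776 with IL-13 6, 18 and 48) and Cd79a were also high on saline 6 and low on saline 48 and IL-13 18, but IL-13 6 was raised for Ms4a1 and not for H2-Ob. Their part in the H2-Ob values was not tested.

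Across the members, 3 of the 7 tested probe sets (H2-Aa, Cd74 and 162346_f_at of H2-DMa) had every IL-13 array lower than either saline array, against 11% of all tested probe sets, and none had them above, against 14.8%. The same 3 had an unadjusted p under 0.05 as lower, against 3.97%. After Benjamini-Hochberg adjustment none passed as lower or higher, where 0.0384% and 0.0128% of all tested probe sets did (3 and 1 of 7811). Leaving out saline 6 gave differences of 0.13, 0.0027 and 0.0579 for H2-Ab1, H2-Eb1 and Ctss, while H2-Aa, Cd74 and 162346_f_at stayed lower, at -0.44, -0.38 and -1.03. For 162346_f_at saline 48 was the high array, and without it the difference was -0.23. This probe set passed the filter of 210.2 on both saline arrays (244 and 425) and on IL-13 18 (214). Its values on IL-13 6 and IL-13 48 (205 on each) lay below the filter. With the filter at the 60th percentile (534.3) it was not tested, so its part in both counts of 3 depends on the filter. In whole tissue, fewer cells of a type and less RNA per cell cannot be told apart.

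**Figure D3:**
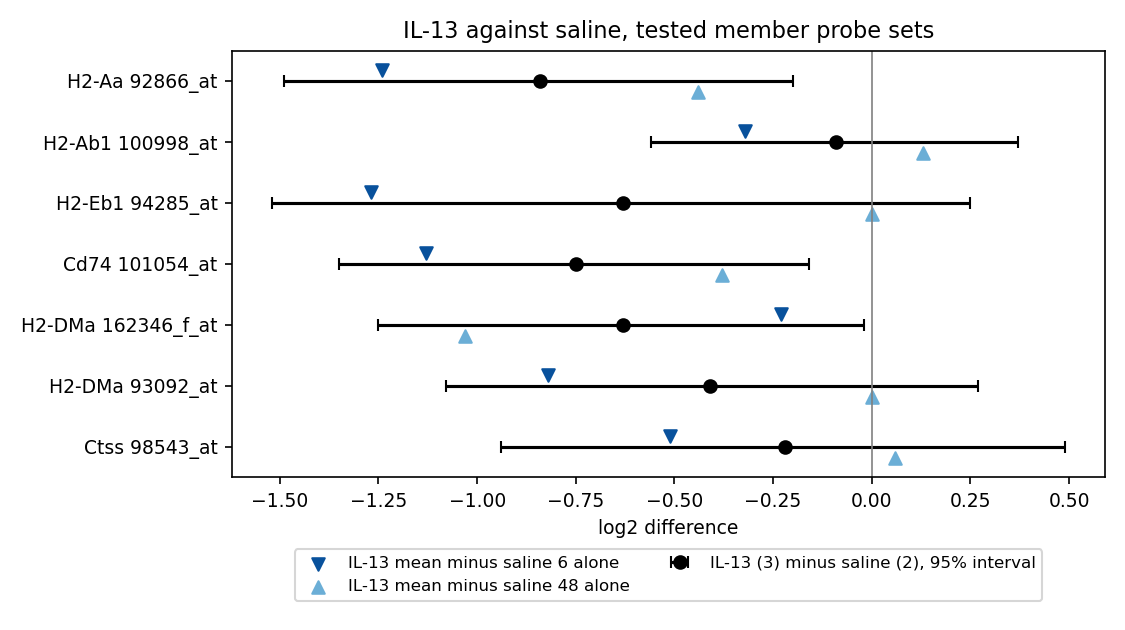
Log2 difference of IL-13 minus saline for the 7 tested member probe sets (circles, with 95% intervals of the limma fit), and the mean of the 3 IL-13 arrays against each saline array alone (triangles). Against saline 6 the difference is below 0 for all 7, and against saline 48 it is below -0.3 for H2-Aa, Cd74 and 162346_f_at of H2-DMa.

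In matched pairs of arrays, which hold 1 array a side and allow no test, the members differed more at title number 6 than at 48. IL-13 6 was at least 2-fold below saline 6 for 4 of the 7 tested probe sets, against 3.15% of all tested. These were H2-Aa (2.43-fold), Cd74 (2.24-fold), H2-Eb1 (2.16-fold) and 93092_at of H2-DMa (2.08-fold), while Ctss (1.40-fold) and H2-Ab1 (1.27-fold) differed less. IL-13 48 was at least 2-fold below saline 48 for 162346_f_at of H2-DMa alone (2.07-fold), against 1.69% of all tested, and at least 2-fold above it for none, against 0.935%. The remaining differences at 48 were at most 1.29-fold (Ctss, lower). With saline 48 as the control of IL-13 6, the count at 6 became 1, and with saline 6 as the control of IL-13 48, the count at 48 became 3. Shares of all tested probe sets are not given for these swapped pairs, so their counts say nothing particular to the members. IL-13 18 lay 2.58-fold below saline 6 and 1.48-fold below saline 48 for H2-Aa, and 2.21-fold and 1.31-fold for Cd74. For H2-Eb1 it lay 2.36-fold below saline 6 and within 1.02-fold of saline 48.

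**Figure D4:**
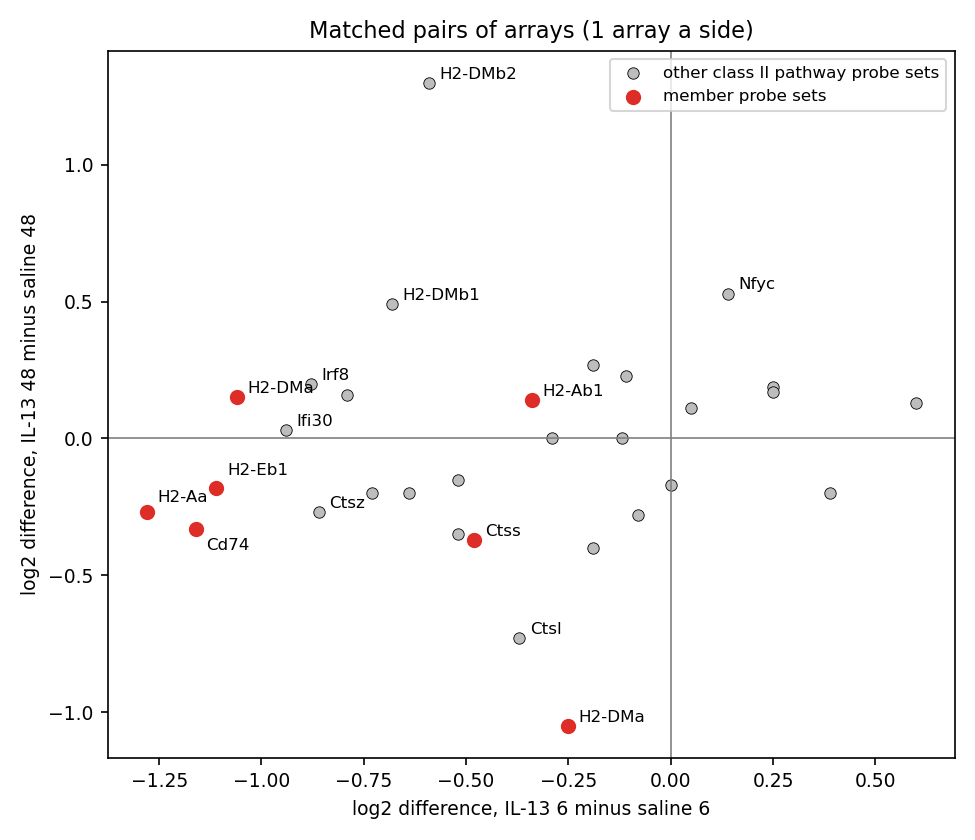
Log2 difference of IL-13 from saline in the pair of title number 6 (horizontal) and of title number 48 (vertical), for tested probe sets of members and of other class II pathway genes, 1 array a side. H2-Aa, H2-Eb1, Cd74 and the brighter H2-DMa probe set lie below -1 on the horizontal axis and between -0.33 and 0.15 on the vertical axis.

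Of 32 other genes of the class II pathway, listed with earlier results of these data known, 27 had a probe set and 20 were tested. By the brightest probe set, 15 had a lower and 5 a higher mean after IL-13, with a median log2 difference of -0.17, and none passed (limma, lowest adjusted p 0.529, 1 with an unadjusted p under 0.05). Saline 6 was the highest array for 13 of the 20, where it was the highest for 21.4% of all tested probe sets. Of all tested probe sets 44.7% had a lower mean, and 723 of 7811 had an unadjusted p under 0.05 in either direction. The median was 0.06 without saline 6 and -0.55 without saline 48.

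The partners of DM and DO were brightest on saline 6 as well. H2-DMb1, a beta chain of DM (98035_g_at), read 1226 on saline 6, 557 on saline 48 and 690 to 784 with IL-13, a difference of -0.15 (limma adjusted p 0.915). H2-DMb2, its near copy (101868_i_at), read 644 on saline 6, 168 on saline 48 and 316 to 428 with IL-13, a difference of 0.22 (adjusted p 0.921). These genes are close in sequence and another probe set, listed for both, was not used, so their values may be shared. H2-Oa, the alpha chain of DO (102274_at), gave 735 on saline 6 and 457 on saline 48, and with IL-13 its values were 512 (6), 294 (18) and 358 (48) (difference -0.62, adjusted p 0.610). Unlike H2-Ob it was above the floor on every array. H2-Ea, the alpha chain of the E molecule, which RefSeq lists for C57BL/6J as a transcribed pseudogene, read 47.8 to 117 and was not tested, and H2-Eb2 lay below the floor on all 5 arrays. The listing of H2-Ea need not hold for A-J, the strain of these mice, and whether the probes match its allele was not checked.

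Of 7 tested endosomal enzymes 5 had a lower and 2 a higher mean, from -0.52 for the peptidase Ctsz (adjusted p 0.529) to 0.27 for the protease Ctsh (adjusted p 0.676). The protease inhibitor Cst3, in the same list, differed by -0.05. Ctsl, which cuts Cd74 in thymic epithelium, read 6521 on saline 48 and 2949 to 4094 on the other arrays. Ifi30, a thiol reductase that opens disulphide bonds of antigens, read 933 on saline 6, 357 on saline 48 and 488, 770 and 365 on IL-13 6, IL-13 18 and IL-13 48, so its array order was that of Ctss except for the last places, where saline 48 and IL-13 48 differed by 1.02-fold.

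Ciita, the class II coactivator (102917_at), was dim, at 353 and 224 with saline 6 and 48 and at 212, 311 and 195 with IL-13 6, 18 and 48 (difference -0.26, SE 0.29, adjusted p 0.816). Saline 6 and IL-13 18 were its high arrays, as they were for Ctss. Irf8 and Spi1, transcription factors of myeloid and B cells, were highest on saline 6 (1311 and 550) and read 461 to 714 and 272 to 361 elsewhere. Nfya, Nfyb and Nfyc, subunits of the factor that binds the Y box, and Rfxank, a subunit of the X box factor, differed by -0.05, 0.11, -0.04 and 0.09, where a dimmer Nfyc probe set differed by 0.47 (adjusted p 0.735). Of the costimulatory and surface genes, the maturation marker Cd83 (103040_at) was the only one tested (-0.41, adjusted p 0.772), and Cd40, Cd80 and Cd86 were too dim.

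Marker lists of cells that carry class II molecules, and of lymphoid tissue, were read beside the members. B and plasma cell markers (9 of 10 with a probe set) summed to 10375 on saline 6 and 2399 on saline 48, and to 1876 to 4364 with IL-13. Of their 8 tested genes 7 were highest on saline 6, as the members were, but their median was 0.75 higher with IL-13 than on saline 48, where the members' gene median differed by 0.00. Macrophage and dendritic cell markers (17 of 18 with a probe set) summed to 19249 on saline 6, 22602 on saline 48 and 24204 to 27229 with IL-13. Without the IL-13 response gene Chil3 the sums overlapped, at 18861 and 22510 with saline and 19634 to 21638 with IL-13. The largest part of each sum was Lyz2 (10708 and 15058 with saline, 11236 to 14634 with IL-13), so the sums mostly follow that gene. Of their 11 tested genes 3 had a lower and 8 a higher mean after IL-13, including Chil3 at 4.39 (limma adjusted p 0.187), and 2 were highest on saline 6. That count takes the brightest tested probe set of a gene. The other tested probe set of Flt3 was highest on saline 6 as well, as were the untested Ccr7, Marco, Itgam and Siglec1. Mpeg1, a macrophage perforin-like gene (99071_at), gave 812 on saline 6 and 753 on saline 48 but 520, 243 and 316 after IL-13 (6, 18 and 48), so its IL-13 arrays lay below both saline arrays, as for H2-Aa and Cd74 (difference -1.19, limma adjusted p 0.386). Mpeg1 was picked out after its values were seen. The macrophage marker Csf1r (104354_at) read 1590 and 1259 with saline and 1103 to 1391 with IL-13, while a dimmer Csf1r probe set read 118 and 176 with saline and 169 to 303 with IL-13. The dendritic cell marker Itgax read 394 and 335 with saline and 343 to 851 with IL-13. Flt3, of the same list, read 1113 on saline 6, 458 on saline 48 and 556 to 752 with IL-13 by 95295_s_at. By 95296_r_at it read 740 and 623 with saline and 707 to 908 with IL-13. Batf3 gave 418 and 247 with saline against 293 to 500 with IL-13. The untested Ccr7 gave 206 and 136 with saline against 62.9 to 133 with IL-13. Lymph node stroma markers (2 of 4 with a probe set) were also highest on saline 6. The endothelial mucin gene Glycam1 read 2959 there and 93.7 on saline 48, against 747, 35.8 and 677 with IL-13 6, 18 and 48, and the B cell chemokine Cxcl13 read 951 and 184, against 402, 94.2 and 390. T cell genes (10 of 11 with a probe set) summed to 14091 and 17184 with saline and to 4393 to 8958 with IL-13, all 10 with a lower mean and none past the limma threshold. Immature thymocyte markers (5 of 5) summed to 2887 and 4255 with saline and to 884, 2844 and 888 with IL-13 6, 18 and 48, with a median difference of -1.17 over 3 tested genes. For Rag1 the sums used 93683_at (difference -2.08) and the median used 161740_r_at (difference 0.28). MHC class I and interferon genes (10 of 10) summed to 56956 on saline 6, 39418 on saline 48 and 34418 to 38353 with IL-13. No list had all its genes below the floor. The part of any of these cells in the members' values was not tested.

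**Figure D5:**
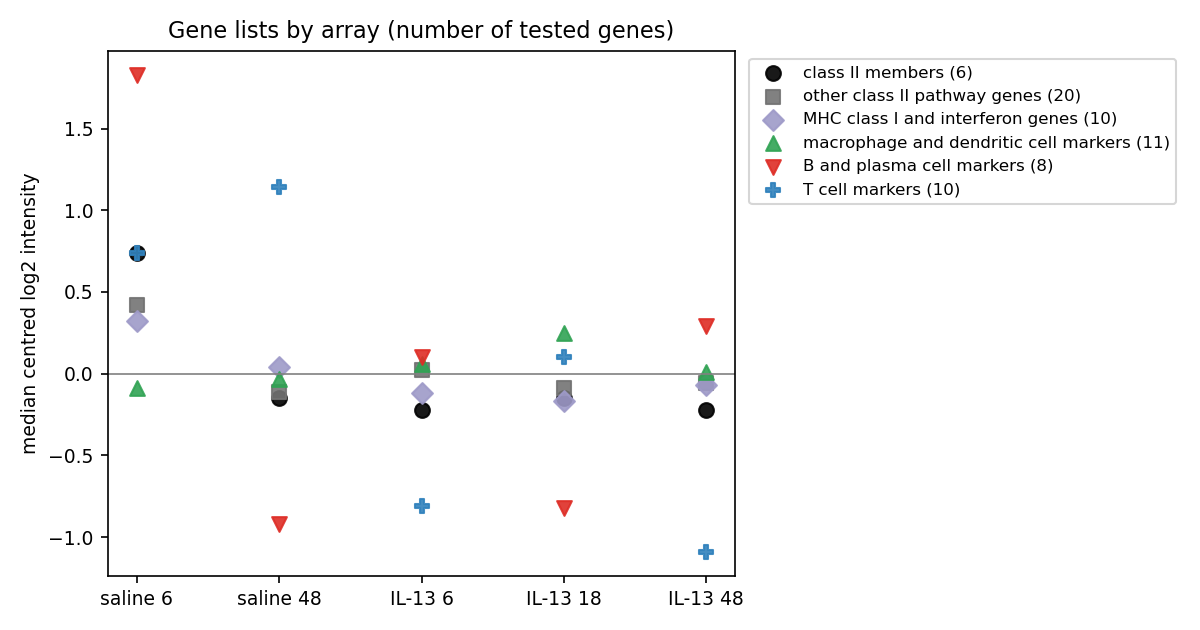
Median over each list's tested genes (number in brackets) of log2 intensity centred on the gene's mean over the 5 arrays. The members stand at 0.74 on saline 6 and between -0.22 and -0.15 on the other arrays, the B cell markers at 1.83 on saline 6 and the macrophage and dendritic cell markers at -0.09.

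The tested genes most like the members were found by the root mean square difference of centred log2 values over the 5 arrays from the mean profile of H2-Aa, H2-Ab1, H2-Eb1 and Cd74 (0.76 on saline 6, -0.06 on saline 48, -0.22 on IL-13 6 and IL-13 48, and -0.25 on IL-13 18). Cd74 lay at 0.0922 from this profile, H2-Aa at 0.154, the brighter H2-DMa probe set at 0.164, H2-Eb1 at 0.179, H2-Ab1 at 0.267 and Ctss at 0.331, where the median of 7056 other probe sets was 0.463 and a flat profile lay at 0.385. H2-Aa, H2-Ab1, H2-Eb1 and Cd74 define the profile, which in part fixes their distances. The 8 closest other genes were Fah (0.0317), Apoc1 (0.0498), Reep5 (0.060), Chpt1 (0.0629), Mgll (0.0657), Dgat1 (0.0675), Pex11a (0.0745) and Tap1 (0.0763). Fah, an enzyme of tyrosine breakdown, read 3084 on saline 6, 1773 on saline 48 and 1544, 1605 and 1563 with IL-13. Dgat1, an enzyme of triglyceride synthesis, read 1518 on saline 6, 791 on saline 48 and 653 to 716 with IL-13. Tap1, the peptide transporter of class I presentation (103035_at), read 1323 on saline 6, 751 on saline 48 and 612 to 704 with IL-13. For the profile of Ctss, from which a flat profile lay at 0.334, the closest were Ramp2 (0.0953), Myl6b (0.103), Amz2 (0.107), Slc25a47 (0.107), Ciita (0.110), Olfr93 (0.113), Exosc4 (0.116) and Ptprd (0.121). With 5 arrays such likeness is a description.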

How the data were processed

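RNA of 2 saline and 3 IL-13 arrays was compared. The values are the intensities that the authors deposited for 12488 probe sets. How they were summarised is not given in the sources used here. Their 2% trimmed mean lies between 800.39 and 800.47 on every array. Control probe sets (66) were left out. The platform annotation gave 1 symbol to 10833 probe sets, several to 396 and none to 1193, and symbols were updated through gene numbers in the RefSeq table (10817). Intensities were set to the same trimmed mean, floored at 55.3, put on the log2 scale and filtered at 210.2 (pooled 40th percentile) on at least 2 arrays. Treatment was fitted alone with limma 3.58.1 (lmFit, eBayes; R 4.3.3), giving 3 residual and 3.46 prior degrees of freedom. Tests were two-sided, p-values were Benjamini-Hochberg adjusted over 7811 probe sets, and 0.05 was the threshold. Standard errors (SE) are moderated. The fit was tested on simulated data. In pairs, a probe set counted as 2-fold apart when its higher value exceeded the pooled median (343.0), and a fold with an array below the floor is written with "at least". The brightest tested probe set stands for a gene in lists. All member probe sets, the tested pathway genes by count with values for those described, and the 8 most alike genes of each profile were named by rule. The members, lists, tests and alternatives were chosen with earlier results of these data known. Alternatives were other scalings, floors, filters and variance settings, the title number as a block, each array left out and other fold thresholds. Precision is limited by having 5 arrays. Plots used matplotlib 3.10.9.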

Additional observations from a re-analysis of the deposited data

Results flagged for a closer look

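For 3 member probe sets the matched pairs moved in opposite directions. The IL-13 array lay below its saline array at 6 and above it at 48. With 1 array a side, no test of this gap was possible, so it was not tested. H2-Ab1 differed by -0.34 on the log2 scale at 6 and by 0.14 at 48, a gap of 0.48. The brighter H2-DMa probe set 93092_at differed by -1.06 at 6 and 0.15 at 48, a gap of 1.21. H2-Ob was lower with IL-13 at 6 (-2.35 or beyond) and higher at 48 (at least 1.46), a gap of at least 3.81, since IL-13 6 and saline 48 both lay below the floor.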

How the results depend on the processing

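No member and no other pathway gene passed under any of the 14 distinct alternatives of the limma fit (lowest adjusted p 0.124 for Cd74, without saline 48), and none passed in the fit itself (H2-Aa, 0.469). The direction of single member probe sets was kept in 94 of 97 values. The exceptions came without saline 6, where H2-Ab1 differed by 0.132, H2-Eb1 by 0.0027 and Ctss by 0.0579. Many of the 97 values could not change direction, so their count does not measure robustness. The deposited values already had nearly the same scaling. The other filters, the 10th percentile floor and the trend and robust settings cannot move a tested member's difference (H2-Aa, -0.84 in each). The block repeats the differences of its 4 arrays without it. Over all arrays left out in turn, H2-Ab1 ranged from -0.319 to 0.132, H2-Eb1 from -1.27 to 0.0027 and Ctss from -0.507 to 0.0579. Leaving out each array in turn gave a median of -0.82 to -0.00125 for the members and -0.55 to 0.0592 for the other pathway genes, both ends without saline 48 and saline 6, and 0 calls for each. Without a saline array, the remaining one is assumed to vary like the IL-13 arrays. In the pairs, a 3-fold threshold left 0 members at 6 and 0 at 48, and the other saline array as control gave 1 at 6 and 3 at 48. Shares of all tested probe sets are not given beside these counts, which are not read as particular to the members. The title numbers pair no samples by the labels. As a replicate block over the 4 arrays of 6 and 48 they gave 0 calls among the members and a median of -0.65, the same as without the block (-0.65). In this balanced layout a block cannot change the difference, so the equal medians say nothing about the title number. The deviations of saline 6 and IL-13 6 from their treatment means correlated at 0.132 over tested probe sets. Over all probe sets the calls numbered 3 lower and 1 higher, and 10 lower and 3 higher without saline 48. They numbered 0 under 8 alternatives: the 10th and 40th percentile floors, no filter, trend and robust settings, each IL-13 array left out, and the block, whose 4 arrays also gave 0 without it.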
